A study of Pimephales promelas with 338 samples.

Results

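The developmental transcription factor families described here were every probe of the panel whose gene symbol begins with the name of a Hox, Dlx, Pax, Sox, Fox, Gata, Nkx, Lhx, Tbx, sine oculis homeobox, Irx, Meis, Pbx, Pou, Msx, Otx, Neurod, Myod or Myf gene. The rule found 31 genes, 1 probe each, among the 1832 probes measured, and it reads the gene names alone. They fell in 11 of the 19 families named: 7 Hox genes, 7 Fox genes, 4 Dlx, 4 Pax, 3 Sox, and 1 gene each of Irx, Meis, Myf, Neurod, Nkx and Pou. All 31 symbols are listed by RefSeq for this fish.

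Genes of these families encode proteins that bind DNA, and many of them set the identity of cells. Hox genes lie in clusters and mark position along the body axis, with Meis proteins as their partners on DNA. Dlx genes pattern the placodes, the pharyngeal arches and the forebrain. Pax and Nkx genes pattern the eye, the brain, the spinal cord, the kidney and the pancreas, and Sox genes hold neural progenitors (Sox2), newly formed neurons (Sox4) or cartilage (Sox9). Fox genes range from pioneers of the gut (Foxa) and markers of the neural crest (Foxd3) to the FoxO proteins, which insulin and Akt signalling keep out of the nucleus and which act in metabolism and stress.

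Larvae of the fathead minnow (Pimephales promelas), a small fish used in toxicity testing, were exposed for 24 h, and the RNA of whole-body pools of up to 5 larvae was read with TempO-Seq, an assay that counts ligated detector oligonucleotides for a fixed panel of transcripts. Each of 6 exposures tested a pair of chemicals, at 8 dose codes (D1 to D8) with 3 replicate pools (A, B and C) per code, beside 3 caffeine and 3 DMSO pools. The pairs were 3,4-Dichlorophenyl isocyanate with Metolachlor OA, Gabapentin with 1(2H)-Phthalazinone, 2-tert-Butyl-4-methoxyphenol with Metribuzin-DA, 4-Chlorophenyl methyl sulfoxide with Hydrochlorothiazide, Fipronil amide with Cetirizine, and cis-Nonachlordane with Fexofenadine. The series text calls 4-Chlorophenyl methyl sulfoxide a sulfone, and the name in the sample labels is used here. A separate quality assurance set (QA) held 8 caffeine and 8 DMSO libraries. Every chemical was dosed in DMSO, so that all larvae received the solvent, at no more than 0.34% in the well. Caffeine was the positive control. Its concentration on the exposure plates is not given in the sources used here, and the series text gives 110 µM for a set of 8. The dilution series ran from 66.67 to 0.021 µM, other than for Fipronil amide (56.43 to 0.018 µM) and Fexofenadine (32.2 to 0.011 µM). The labels do not tie a code to a concentration, so slopes are given per step towards D1 and no code is called the highest dose. Larvae that died were left out of the pools, and 2-tert-Butyl-4-methoxyphenol had 1 library at D1, that of replicate A.

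The 338 libraries held between 112247 and 1029510 counts, with a median of 609598. The library of cis-Nonachlordane D6 replicate B was the shallowest, and the next held 337162 counts. Larval organs were represented in the DMSO libraries of the plates, where the liver gene fabp10a averaged 300.3 ± 94.0 CPM (counts scaled by the library total), the cartilage collagen col2a1a 1230 ± 246 CPM and the neuronal gene snap25a 1213 ± 148 CPM (SD, n = 18). Detectors differ in efficiency and the values are not per length, so the readings below describe the probes, and their order is not an order of expression between genes.

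In the 18 DMSO libraries of the plates, 6 of the 31 genes averaged at least 200 CPM, 15 averaged between 20 and 200 CPM, 3 between 5 and 20 CPM, and 7 below 5 CPM. The probe of pax6a, a regulator of the eye, brain and pancreas, read 739 ± 73.8 CPM (SD, n = 18). It was also the steadiest of the 22 members tested in caffeine and DMSO alike, with a coefficient of variation of 9.99%, and pax2a, a gene of the midbrain-hindbrain boundary, ear and kidney, was the most variable of them at 40.1%. Between 327 and 548 counts a library lay behind pax6a and between 9 and 31 behind pax2a. Counting noise was not separated from these coefficients. The proneural factor neurod1 read 476 ± 57.3 CPM, the Hox partner meis3 300.5 ± 50.4 CPM, sox4a 232 ± 51.0 CPM, foxo4 229 ± 30.9 CPM and foxo3b 223 ± 37.3 CPM. Among the Hox probes hoxa9a read 139.7 ± 24.8 CPM. The Nkx gene nkx2.2a, which patterns the ventral neural tube, read 83.7 ± 15.98 CPM and dlx3b read 106 ± 37.3 CPM.

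The 7 genes below 5 CPM were dlx2a, dlx4b, foxm1, hoxb13a, irx5b, pax3a and pou5f3. None of them reached more than 10 counts in any of the 338 libraries, and each was at 0 in between 33 libraries (dlx4b) and 130 libraries (foxm1). The Iroquois gene irx5b averaged 4.59 ± 3.44 CPM, from 0 to 11.8 CPM, and pou5f3, the fish relative of the pluripotency factor Oct4, averaged 3.502 ± 2.91 CPM, from 0 to 10.3 CPM (SD, n = 18). The myogenic factor myf5 stood just above this group at 9.97 ± 5.42 CPM, with 1 to 12 counts a library. These counts leave wide intervals for any change. A filter for a count of about 10 in enough libraries left 23 members tested in all 12 chemicals (74.2% of the 31, beside 79.1% of all probes), 2 tested in some (myf5 in 8 and foxm1 in 2) and 6 in none. For the chemicals, enough meant as many libraries as the smallest group of the exposure held. That was 1 library in the exposure of 2-tert-Butyl-4-methoxyphenol and Metribuzin-DA, so the filter was laxer there. The gene foxm1 was tested only in these 2 chemicals.

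**Figure D1:**
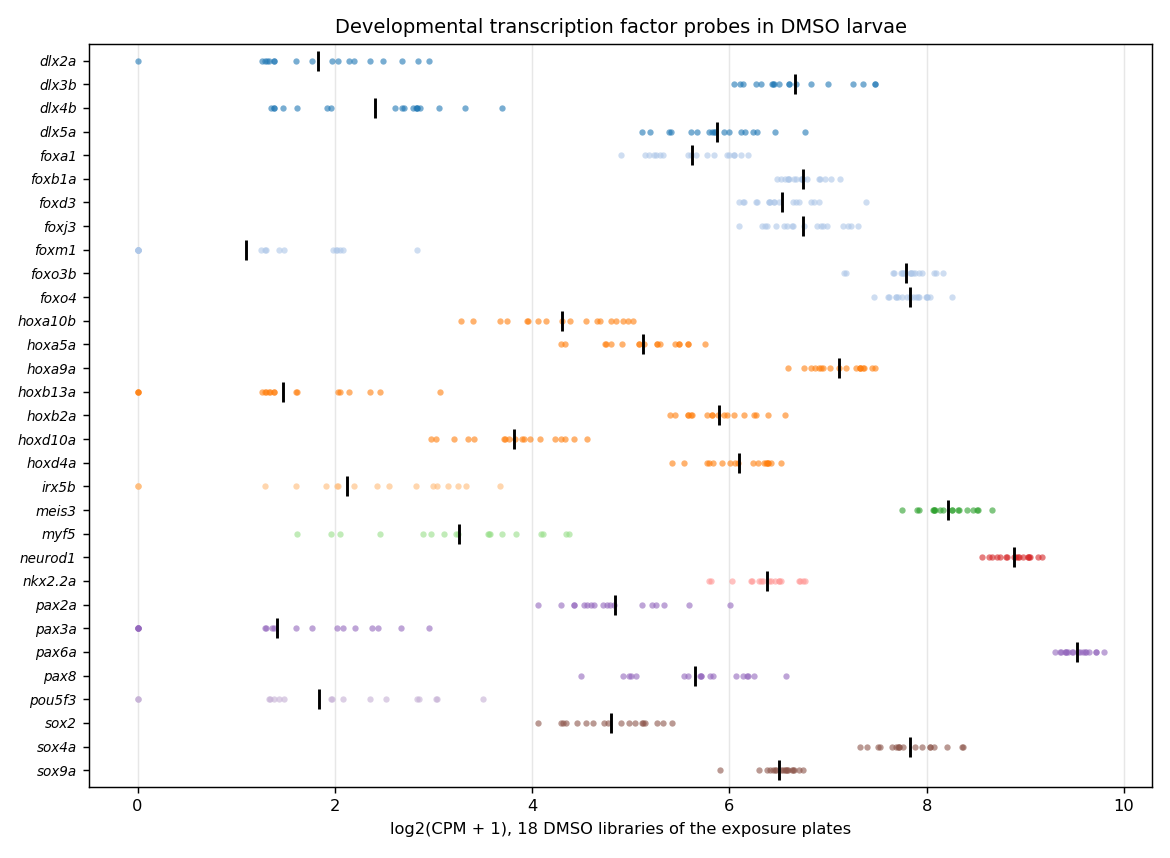
Each point is 1 of the 18 DMSO libraries of the exposure plates, on a log2 axis of CPM + 1, with 1 row for each of the 31 genes coloured by family, and the black tick is the mean. The 7 genes that averaged below 5 CPM sit at the left with libraries at or near 0, and pax6a and neurod1 sit at the right.

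Each code was tested against the DMSO libraries of its own exposure, and a slope over the 8 codes was tested without the DMSO libraries. Both used edgeR's quasi-likelihood test, with p-values adjusted by Benjamini-Hochberg over all probes. In the sample descriptions D1 stood in well row A, and so on to D8 in row H. Within a chemical, slope and well row thus cannot be told apart. The slope difference used below compares 2 chemicals with the same rows. A gene was called where the adjusted p was below 0.05. Of 286 pairs of a member and a chemical, 2 were called at some code (1.65% of all 18228 pairs of a probe and a chemical were), and 7 had a slope (3.94% of all pairs did). Of the code calls 1 rests on a code with 1 library. All of the calls belonged to 2 chemicals, 3,4-Dichlorophenyl isocyanate and 2-tert-Butyl-4-methoxyphenol. Replicates of the exposures were pools of larvae, by the protocol 1 pool per plate, though the labels do not name the exposure plate of a library. In both chemicals with calls, the descriptions give replicates A, B and C of a code the same well. These replicates thus lay on different plates, and whether those were exposure or library plates is not stated. A fit with replicate as a block is given among the alternatives below. The main fit did not pair pools by plate, so its p-values measure the spread between pools together with any spread between plates. In pools of whole larvae, fewer cells of a type and less RNA per cell cannot be told apart.

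**Figure D2:**
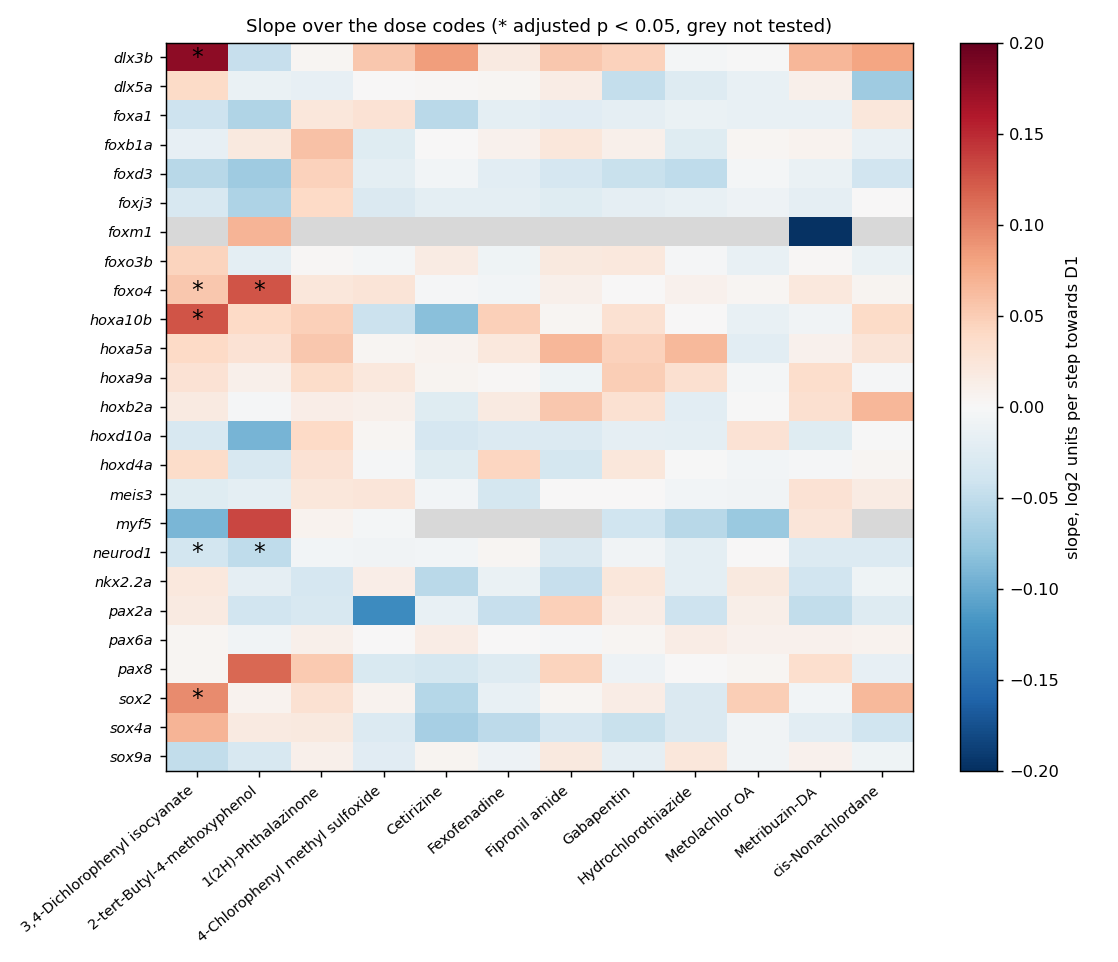
Colour gives the slope over the 8 dose codes, in log2 units per step towards D1, for each member tested (rows, by family) in each of the 12 chemicals (columns). Asterisks mark the 7 slopes with an adjusted p below 0.05, which lie in the first 2 columns, and grey marks members not tested.

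In larvae given 3,4-Dichlorophenyl isocyanate, a reactive aryl isocyanate, 5 of the 24 members tested had a slope (18.7% of all 1507 probes did): dlx3b, foxo4, hoxa10b and sox2 rose towards D1 and neurod1 fell. The upward share, 4 of 24, stands beside 8.03% of all probes, and the downward share, 1 of 24, beside 10.7%. At single codes 1 of the 24 members was called (4.25% of all probes were), and it was dlx3b, at D1 (4.11% of all probes) and at D2 (1.13%). At D3 0.265% of all probes were called, at D4 and at D6 0.0664% each, and none of the members. Over the 24 members the median slope was 0.02 log2 units per step, and over all probes -0.000159.

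The largest of these changes was in dlx3b, a Dlx gene that acts with its neighbour dlx4b in the ear and nose placodes of zebrafish. It read 228, 308 and 277 CPM in replicates A, B and C at D1 and 147, 259 and 293 CPM at D2, against 127, 101 and 96.2 CPM in the DMSO pools of the exposure. All 3 libraries at D1 lay above the highest of the 18 DMSO libraries of the plates, which read 177 CPM, and replicate B at D1, at 308 CPM, was the highest dlx3b reading of all 338 libraries. At D2 replicate A stood within the range of those 18 libraries.

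The rise of dlx3b was 1.26 ± 0.20 log2 units at D1 (SE, edgeR adjusted p = 4.72e-05), which is 2.39-fold, and 1.02 ± 0.20 at D2 (edgeR adjusted p = 0.00226). Without replicate B the D1 change was 1.096 and lost its call (adjusted p = 0.0710). The D2 change lost its call without replicate B (0.90, adjusted p = 0.272) and without replicate C (0.75, adjusted p = 0.434). Group means of dlx3b ran 108 CPM in DMSO, 95.2 at D8, 115 at D7, 120.2 at D6, 135 at D5, 137 at D4, 154 at D3, 233 at D2 and 271 at D1. The means climbed at every step from D8 to D1, and the step from D3 to D2 was the widest. The slope was 0.18 ± 0.02 log2 units per step (edgeR adjusted p = 7.9e-09), and it was called in every alternative run, among them the fit without D1, where it was 0.15 (adjusted p = 0.000207). Between 139 and 163 counts lay behind each D1 value.

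Metolachlor OA, a degradate of the herbicide metolachlor, shared its plates with the isocyanate. Its 3 libraries at D1 read 128, 119 and 128 CPM for dlx3b, and over its 24 libraries the gene ran from 62.3 to 150.2 CPM, with a slope of -0.000117 log2 units per step (95% interval -0.05 to 0.05). The difference between the slopes, isocyanate minus Metolachlor OA, was 0.18 ± 0.03 for dlx3b (edgeR adjusted p = 0.000161). This was the only one of the 24 members whose slope differed between the pair (5.77% of all 1507 probes did). Caffeine on the same plates read 98.3, 120.5 and 104 CPM, within the range of the DMSO pools.

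The other Dlx genes gave less. The slope of dlx5a, another gene of the arches and forebrain, was 0.04 and was not called. The RefSeq neighbour of dlx3b, dlx4b, had 6.56, 3.80 and 5.10 CPM at D1, against 1.79, 2.06 and 5.50 CPM in DMSO, too few counts to test.

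**Figure D3:**
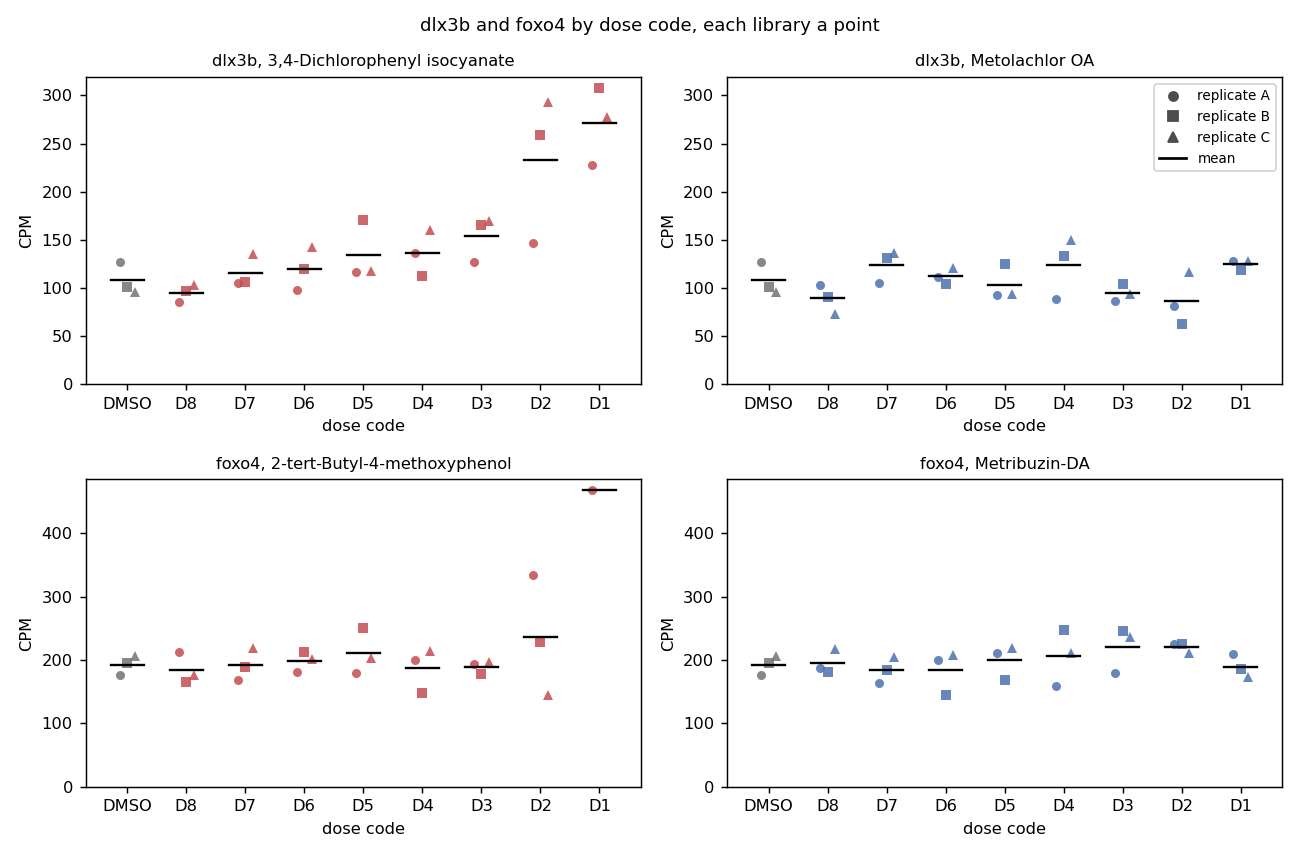
Each point is the CPM of 1 library, with marker shape for the replicate and a line for the mean, over DMSO and the codes D8 to D1. In the upper panels dlx3b reads 228 to 308 CPM at D1 of 3,4-Dichlorophenyl isocyanate and 119 to 128 CPM at D1 of Metolachlor OA. In the lower panels the single D1 library of 2-tert-Butyl-4-methoxyphenol stands at 468 CPM for foxo4, above all libraries of Metribuzin-DA.

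Among the Hox genes only hoxa10b, a gene of the posterior trunk and fins, had a called slope with the isocyanate. It read 42.7, 55.1 and 44.2 CPM at D1, against 30.4, 24.7 and 31.6 CPM in DMSO. Its slope was 0.13 ± 0.04 log2 units per step (edgeR adjusted p = 0.0126). The difference from its slope with Metolachlor OA was 0.14 ± 0.05 and was not called (edgeR adjusted p = 0.119). The lowest codes of the slope were also low: at D8 replicates A and C read 11.7 and 11.8 CPM, below every DMSO library of the exposure. At D1 alone the change was 0.62 ± 0.33 (edgeR adjusted p = 0.632), so the call rests on the slope, which was lost without D1 (0.10, adjusted p = 0.279), without replicate A (0.10, adjusted p = 0.139) and without replicate B (0.14, adjusted p = 0.0589). Between 26 and 29 counts lay behind the D1 values. The other 5 Hox genes tested had slopes from -0.03 (hoxd10a) to 0.04 (hoxa5a and hoxd4a) and none was called.

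The neural progenitor factor sox2 read 41.0, 51.3 and 54.4 CPM at D1 of the isocyanate, against 37.6, 18.6 and 28.9 CPM in DMSO. All 3 D1 libraries lay above the DMSO pools, though the highest DMSO pool came within 4 CPM of the lowest of them. The slope was 0.09 ± 0.03 log2 units per step (edgeR adjusted p = 0.0412), and it lost its call in DESeq2 (adjusted p = 0.0504), without D1 (adjusted p = 0.398) and without any 1 replicate (adjusted p from 0.0996 to 0.25). Its difference from the sox2 slope of Metolachlor OA was 0.05 ± 0.05 and was not called (edgeR adjusted p = 0.66). Of the other Sox genes, sox4a had a slope of 0.07 ± 0.03 (edgeR adjusted p = 0.0525), with 205, 209 and 335 CPM at D1 against 159, 184 and 206 CPM in DMSO, and sox9a, the cartilage factor, had a slope of -0.05 (edgeR adjusted p = 0.162). With replicate added to the fit as a block the sox4a slope was 0.07 and called (edgeR adjusted p = 0.00612).

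The FoxO gene foxo4 was the only upward member in both chemicals with calls. With the isocyanate it read 308, 283 and 406 CPM at D1 and 288, 333 and 313 CPM at D2, against 256, 208 and 223 CPM in DMSO. Every library at D1 and D2 stood above the DMSO pools, and replicate C at D7 (350.1 CPM) stood among them. The slope was 0.05 ± 0.02 log2 units per step (edgeR adjusted p = 0.0253), and it was lost without D1 (0.04, adjusted p = 0.355) and without any 1 replicate (adjusted p from 0.0773 to 0.177). Its difference from the foxo4 slope of Metolachlor OA was 0.05 ± 0.03 and was not called (edgeR adjusted p = 0.278). Its paralogue foxo3b had a slope of 0.05 ± 0.02 (edgeR adjusted p = 0.0573), with 244, 243 and 279 CPM at D1 against 213, 144 and 216 CPM in DMSO. With replicate added to the fit as a block the foxo3b slope was 0.05 and called (edgeR adjusted p = 0.0332).

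With 2-tert-Butyl-4-methoxyphenol, the phenolic antioxidant known from butylated hydroxyanisole, 1 of the 25 members tested was called at some code (14.7% of all 1589 probes were), and 2 had a slope (27.2% of all probes did). The code call was foxo4 at D1. That code held 1 library, which read 468 CPM, the highest foxo4 reading of all 338 libraries, against 176, 195 and 206 CPM in DMSO. At D2 replicates A, B and C read 334, 229 and 145 CPM, so that the 3 replicates lay on both sides of the DMSO pools, and at the codes D8 to D3 all libraries lay between 148 and 249.9 CPM. The change at D1 was 1.23 ± 0.23 log2 units (SE, edgeR adjusted p = 0.000464), for which the lone library was taken to vary like the other groups, so that the test holds no spread of its own at D1. The slope was 0.13 ± 0.02 per step (edgeR adjusted p = 4.68e-05). It fell to 0.04 without D1 (adjusted p = 0.404) and to 0.01 without replicate A, which holds the D1 library (adjusted p = 0.938), and neither was called.

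Metribuzin-DA, a degradate of the herbicide metribuzin, was tested on the same plates, and its D1 libraries read 210.1, 185 and 173 CPM for foxo4. The difference of slopes, 2-tert-Butyl-4-methoxyphenol minus Metribuzin-DA, was 0.11 ± 0.03 for foxo4 (edgeR adjusted p = 0.0138), the only one called among 25 members (14.7% of all probes were called). Without replicate A the difference was -0.01 (adjusted p = 0.971). The D1 library of 2-tert-Butyl-4-methoxyphenol had 37.5 CPM of dlx3b, against 67.9, 79.0 and 69.6 CPM in DMSO, and the dlx3b slope was -0.05 ± 0.05 (edgeR adjusted p = 0.498). The same library read 124 CPM for pax8, a gene of thyroid, kidney and ear, against 31.0, 46.7 and 94.2 CPM in DMSO. The slope of pax8 was 0.11 ± 0.04 (edgeR adjusted p = 0.0503) and missed the threshold.

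The proneural gene neurod1, which drives differentiation of neurons and of pancreatic endocrine cells, was the only member with a downward slope that was called, shallow and in both chemicals. With the isocyanate it read 412, 427 and 434 CPM at D1, against 478, 487 and 502 CPM in DMSO. At D2 replicates A and C, at 491 and 503 CPM, were back among the DMSO values. The D8 libraries, at 379.8, 425 and 441 CPM, also lay below all 3 DMSO pools and spanned the D1 values. The means thus did not fall steadily from DMSO to D1. Its slope was -0.04 ± 0.01 log2 units per step (edgeR adjusted p = 0.0233). With 2-tert-Butyl-4-methoxyphenol the D1 library read 440.2 CPM and the DMSO pools 521, 471 and 576 CPM, with a slope of -0.05 ± 0.02 (edgeR adjusted p = 0.0237). The D8 libraries of that chemical were higher than 2 of the 3 DMSO pools, at 587, 643 and 569.7 CPM. The slope of neurod1 lost its call without D1 in the isocyanate (adjusted p = 0.231) and in 2-tert-Butyl-4-methoxyphenol (adjusted p = 0.131). It lost it without any 1 replicate in the isocyanate (adjusted p from 0.0597 to 0.269), and without replicate A (0.372), without replicate C (0.18) and with the phenol fitted without caffeine and Metribuzin-DA (0.0824) in 2-tert-Butyl-4-methoxyphenol. The differences of the neurod1 slopes from those of the chemical on the same plates were -0.04 (95% interval -0.07 to -0.00349) for the isocyanate and -0.02 (-0.07 to 0.02) for the phenol, and neither was called (edgeR adjusted p = 0.202 and 0.531).

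**Figure D4:**
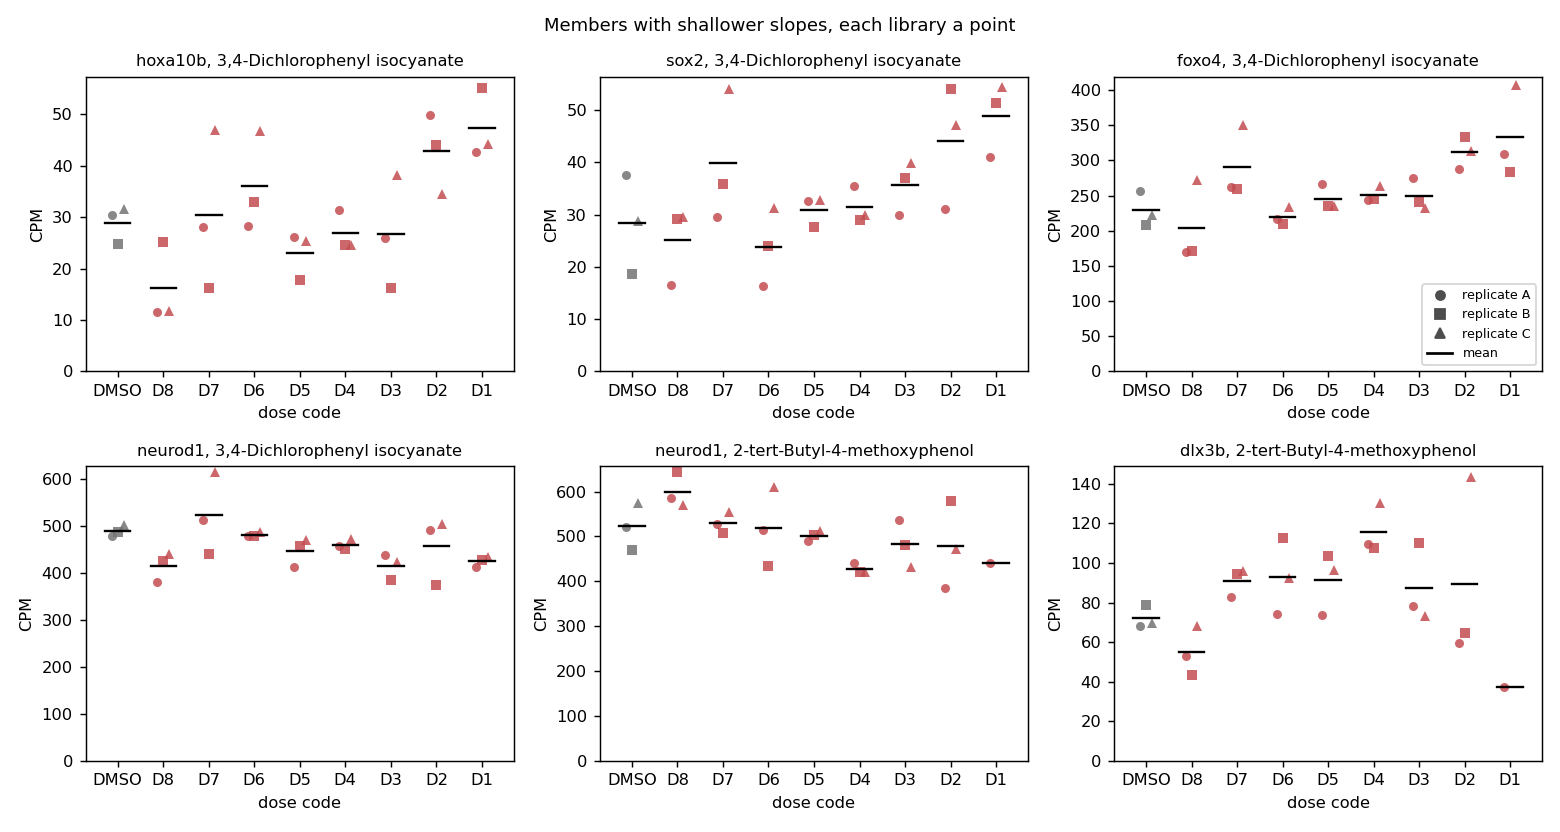
Each point is the CPM of 1 library over DMSO and the codes D8 to D1, with marker shape for the replicate and a line for the mean. The panels for hoxa10b, sox2 and foxo4 show D1 libraries of 3,4-Dichlorophenyl isocyanate above the DMSO pools, at 42.7 to 55.1, 41.0 to 54.4 and 283 to 406 CPM, neurod1 at D1 lies at 412 to 434 CPM with the isocyanate and 440.2 CPM with 2-tert-Butyl-4-methoxyphenol, and the last panel shows dlx3b with the phenol, at 37.5 CPM at D1.

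Several members had slopes near 0. The slope of pax6a was 0.00423 (95% interval -0.02 to 0.03) with the isocyanate and -0.01 with 2-tert-Butyl-4-methoxyphenol, that of meis3 -0.02 in both, and that of nkx2.2a 0.02 and -0.02. None of these 3 genes was called. The slope of myf5 was -0.09 with the isocyanate and 0.13 ± 0.06 with 2-tert-Butyl-4-methoxyphenol (edgeR adjusted p = 0.097), where the D1 library had 16 counts. Without replicate C the slope with the phenol was 0.19 and called (edgeR adjusted p = 0.0360). The neural crest gene foxd3 had slopes of -0.06 and -0.07, the gut pioneer foxa1 -0.04 and -0.06, and neither was called.

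Other developmental genes were read from lists chosen with results of these data known. Along the codes of the isocyanate 8.03% of all probes rose and 10.7% fell. Of 19 other developmental transcription factors tested, none rose and 5 fell, among them id1, an inhibitor of basic helix-loop-helix factors (-0.08 ± 0.01 per step, edgeR adjusted p = 2.79e-08), snai2, a factor of mesenchymal cells (-0.09 ± 0.01, edgeR adjusted p = 2.74e-06), and barx2 (-0.22 ± 0.04, edgeR adjusted p = 0.000173). The median slope of that list was -0.02. Of 26 genes of BMP, FGF, Hedgehog, Wnt and Notch signalling, 2 rose (the BMP antagonist chrd, by 0.38 per step, and dusp6, a target of FGF signalling, by 0.07) and 4 fell, id1 and the Notch ligand dla among them, with a median of 0.01.

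Cell cycle and cartilage genes moved with the isocyanate as well. Along its codes 0 of 31 cell cycle genes rose and 17 fell (mcm4, pcna and birc5a first), with a median slope of -0.08, and their summed level was 2294 to 2434 CPM at D1, against 3713 to 4208 CPM in DMSO. Of 12 cartilage and bone genes 0 rose and 8 fell (slopes of -0.18 for col10a1a, -0.09 for col9a1a and -0.11 for col2a1a), with a median of -0.08 and a sum of 11458 to 14748 CPM at D1, against 16931 to 17743 CPM in DMSO. The neural and eye list, by contrast, had 0 of 14 genes higher and 1 lower (dla, -0.07), and its sum overlapped between D1 (3094 to 3183 CPM) and DMSO (2874 to 3300 CPM). The part of these lists in the Dlx, Hox, Fox, Sox and Neurod changes was not tested. Library totals at D1 (526347 to 609564 counts) lay within those of DMSO (485003 to 727659).

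The remaining lists were short or mixed in the isocyanate. Of 16 endoderm, liver and pancreas genes 2 rose and 4 fell, of 8 blood and endothelium genes 1 rose and 2 fell, and 1 of 2 neural crest and pigment genes (snai2) and 1 of 2 skin genes (dsc2l) fell. The 1 muscle gene tested and the 2 genes of retinoic acid signalling, the pathway that sets Hox domains, had no called slope.

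Along the codes of 2-tert-Butyl-4-methoxyphenol 14.4% of all probes rose and 12.8% fell. The 19 other transcription factors gave 3 that rose (prdm1a, snai2 and vsx1) and 1 that fell (hnf4a, the liver and gut regulator, -0.21 ± 0.03, edgeR adjusted p = 1.71e-06). Of 14 neural and eye genes 1 rose (vsx1) and 5 fell, dla, map2 and gap43 first, with a median of -0.06, and the sum of the list was 2089 CPM in the D1 library, against 2579 to 2840 CPM in DMSO, beside the lower neurod1. Of 31 cell cycle genes 0 rose and 15 fell (median -0.11), and the sum was 1913 CPM at D1, against 3443 to 4429 CPM in DMSO. Of 27 signalling genes 6 rose (fgfr4, dusp6 and fgfr2 first) and 3 fell. Of 8 blood genes 4 rose and 0 fell, of 16 endoderm genes 4 rose and 5 fell, of 12 cartilage and bone genes 0 rose and 1 fell, and of 2 crest and pigment genes 1 rose. The muscle, skin and retinoic acid lists, with 1, 2 and 2 genes tested, had no called slope. The D1 end of these slopes and sums is 1 library, and the lists were not read from the fit without D1. At D2, with 3 libraries, 50 of 1589 probes were called. There 2 of 31 cell cycle genes fell, with a median change of -0.45 log2 units over the list. Of 16 endoderm genes 4 rose and 1 fell at D2, and 1 of 8 blood genes rose. No gene of the other lists was called at D2. The part of these lists in the foxo4 and neurod1 slopes was not tested.

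For the other 10 chemicals no member was called at any code and none had a slope. The background in these chemicals was nearly empty as well: 0.0629% of probes were called at some code and along the codes in Metribuzin-DA, 0.068% at some code in Fexofenadine, 0.202% along the codes in Cetirizine and 0% in the other comparisons. At an unadjusted p below 0.05 there were 18 of 237 member slopes (7.59%, beside 5.54% of 15132 slopes of all probes) and 61 of 1896 member codes (3.22%, beside 3.79% of 121056). DESeq2 called none of these either. The 95% intervals of the 237 slopes ran from -0.48 to 0.15 log2 units per step, the low end from foxm1.

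Several of these uncalled slopes came from the same few genes, picked out with these values in view. For sox4a the slope was -0.05 in Fexofenadine (edgeR adjusted p = 0.396), -0.07 in Cetirizine (adjusted p = 0.257) and -0.04 in cis-Nonachlordane (adjusted p = 0.63), where with the isocyanate it was 0.07. For dlx3b the slope was above 0 in 9 of the 12 chemicals, and after the isocyanate it was steepest in Cetirizine (0.08, edgeR adjusted p = 0.421) and cis-Nonachlordane (0.08, adjusted p = 0.63). For pax2a in 4-Chlorophenyl methyl sulfoxide the slope was -0.13 (edgeR adjusted p = 0.515). The 3 D2 libraries there read 17.8, 14.2 and 15.7 CPM, below the DMSO pools at 20.5, 27.4 and 37.3 CPM. The D1 libraries read 17.9, 24.3 and 37.4 CPM and spanned the range of those pools. Without D1 the pax2a slope was -0.20 and called (adjusted p = 0.0303).

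Caffeine on the exposure plates, 18 libraries against 18 of DMSO with exposure as a term, gave no call among the 22 members tested (4.26% of all 1363 probes were called). Of them 3 had an unadjusted p below 0.05, while DESeq2 also called 0. The intervals of the 22 members lay between -0.36 and 0.58 log2 units, so that a change of 2-fold lay outside all of them. The largest difference was in pax8, at 0.30 ± 0.14 (edgeR adjusted p = 0.241), with 35.6, 67.2 and 91.9 CPM as lowest, median and highest in caffeine and 21.6, 51.6 and 94.2 CPM in DMSO. The other members with a low unadjusted p were foxo4, 0.13 ± 0.06 (edgeR adjusted p = 0.211), and sox4a, 0.14 ± 0.07 (edgeR adjusted p = 0.26), and in both the ranges of the groups overlapped over most of their length. On the same plates 14 of 29 cell cycle genes fell and 0 rose, 1 of 8 blood genes (the globin hbae5) and 4 of 16 endoderm genes rose, and of the 16 other developmental transcription factors and 23 signalling genes tested none was called.

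In the QA set, 8 caffeine libraries against 8 of DMSO, 0 of 22 members were called (1.28% of all 1324 probes were), 0 had an unadjusted p below 0.05, and DESeq2 called 0. The p-values and intervals of this set measure the spread between its libraries. Whether each of these libraries was its own pool of larvae was not established here. The widest difference was -0.18 ± 0.17 for sox2, and all intervals lay between -0.53 and 0.49. The pax8 difference was -0.02 there, and that of foxo4 0.02, beside 0.30 and 0.13 on the plates, while sox4a was 0.16 ± 0.09 (edgeR adjusted p = 0.533). Of 30 cell cycle genes 3 fell, and 1 of 8 blood genes (hbae5) and 2 of 16 endoderm genes (tat and alpi.2) rose. The caffeine change differed between plates and QA in 0 of 24 members (0% of 1508 probes; 0 members at an unadjusted p below 0.05) and between the 6 exposures in 0 of 24 (0% of 1506 probes; 0 members at an unadjusted p below 0.05), and DESeq2 called 0 in each.

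**Figure D5:**
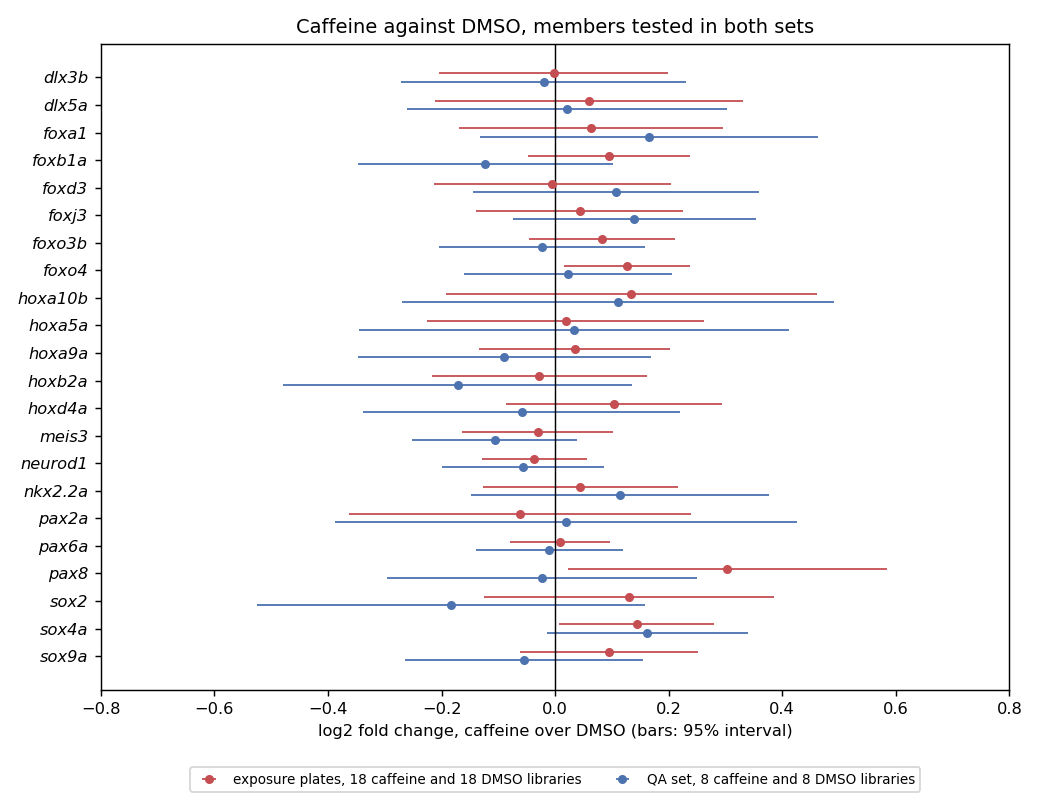
Points are log2 fold changes of caffeine over DMSO with 95% intervals, for 22 members, in red for the exposure plates (18 caffeine and 18 DMSO libraries) and in blue for the QA set (8 and 8). Intervals of the plates lie between -0.36 and 0.58, and those of QA between -0.53 and 0.49.

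Before any chemical is considered, dlx3b varied between exposures. Among the DMSO libraries of the 6 exposures it was the only one of 24 members that differed (edgeR F = 4.78, adjusted p = 0.0361; 9.77% of all 1474 probes did). The DMSO means of dlx3b were 146 ± 53.1 CPM with Cetirizine and Fipronil amide, 137 ± 35.6 with 1(2H)-Phthalazinone and Gabapentin, 108 ± 16.6 with Metolachlor OA and the isocyanate, 91.8 ± 19.1 with Hydrochlorothiazide and 4-Chlorophenyl methyl sulfoxide, 80.4 ± 13.3 with Fexofenadine and cis-Nonachlordane and 72.2 ± 5.95 with Metribuzin-DA and 2-tert-Butyl-4-methoxyphenol (SD, n = 3 each). In the same comparison 5 of 16 endoderm genes (prss59.1, prss1, alpi.2, apoa2 and tat), 5 of 31 cell cycle genes and 1 of 11 cartilage and bone genes (cnmd) differed, and their part in the dlx3b difference was not tested. Neighbours in the order of dlx3b means differed by less than the larger of their standard deviations. In the QA set dlx3b read 67.6 ± 8.95 CPM in caffeine and 69.6 ± 8.15 CPM in DMSO (SD, n = 8 each). The call was lost without replicate A (adjusted p = 0.138) and without replicate B (0.429). The part of the library plate in the dlx3b difference was not tested. At single codes every chemical above was compared with the DMSO pools of its own exposure, and the slopes left the DMSO libraries out.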

How the data were processed

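Whole-body pools of larvae were measured with TempO-Seq. The authors deposited unnormalized whole-number counts, 1 row per probe. Of the upstream software only bcl2fastq is known, per the submitters' processing notes; aligner and build: not given in the sources used here. All 338 columns were matched to samples, with 0 unmatched. Groups follow the treatment labels and sample descriptions. The titles of some caffeine libraries name DMSO, and there the treatment label was used.

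Library depths of 112247 to 1029510 counts set the precision. Counts were filtered (filterByExpr, minimum count 10), scaled by TMM and tested with edgeR 4.0.16 in R 4.3.3 (quasi-likelihood F-test, 1 fit per exposure, Benjamini-Hochberg over all probes, or over probes and 8 codes together for the codes). The scripts were checked on simulated data. DESeq2 1.42.0 was an alternative, as were other size factors, no filter, a replicate block, other sample sets and leaving out each replicate. Intervals are the log2 change plus or minus the t quantile times an error from the F statistic.

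The members and all 11 gene lists were chosen with earlier results of these data known. Named with full values are members called in any comparison, the member of each family with the highest DMSO mean, and at most 3 genes per list and direction; others named are examples. The RefSeq table of fPimPro1.hap1.1 gave names and neighbours only.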

Additional observations from a re-analysis of the deposited data

Results flagged for a closer look

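A pair of members had slopes that differed between the 2 chemicals given on the same plates, by a test of the difference itself. For dlx3b the slope with 3,4-Dichlorophenyl isocyanate exceeded that with Metolachlor OA by 0.179 log2 units per step towards D1. For foxo4 the slope with 2-tert-Butyl-4-methoxyphenol exceeded that with Metribuzin-DA by 0.105 per step, and this rests on the single library at D1. In the isocyanate pair 1 of 24 members was called, beside 87 of all 1507 probes. In the phenol pair 1 of 25 members was called, beside 233 of all 1589 probes. In the 8 caffeine and the 8 DMSO libraries of the QA set, none of the 13 members named in full had a library far from the others (26 sets of 8 values checked).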

How the results depend on the processing

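The dlx3b slope with 3,4-Dichlorophenyl isocyanate and its difference from Metolachlor OA kept their calls in every alternative run for them. DESeq2's size factors in edgeR and no filter on low counts left every named call in place, and those size factors added sox4a for the isocyanate and pax8 for 2-tert-Butyl-4-methoxyphenol. Leaving out 1 replicate gave 1 to 2 members called at some code over the 12 chemicals, 0 to 1 for the isocyanate and 0 to 1 for 2-tert-Butyl-4-methoxyphenol, 1 to 6 slopes in all, 1 to 3 for the isocyanate and 0 to 3 for 2-tert-Butyl-4-methoxyphenol, 1 to 2 slope differences and 0 to 1 members that differed between DMSO libraries. The foxo4 slope difference ran from -0.0106 without replicate A, which leaves out the D1 library, to 0.119 without replicate B, and was 0.000108 without D1. Without D1 there was 1 member called at some code (0 for 2-tert-Butyl-4-methoxyphenol), 2 slopes (1 for the isocyanate, 0 for 2-tert-Butyl-4-methoxyphenol, the other being pax2a in 4-Chlorophenyl methyl sulfoxide) and 1 slope difference. DESeq2 called 2 members between DMSO libraries, neurod1 the second. Fitted without caffeine and the other chemical, 2-tert-Butyl-4-methoxyphenol had 1 slope, and the isocyanate gained sox4a (adjusted p = 0.0364). Without replicate C sox4a was called for the isocyanate (0.0359), and myf5 (0.0360) and pax8 (0.0394) for the phenol. The cause was not tested. Leaving out the shallow cis-Nonachlordane D6 library, an alternative chosen after seeing the data, changed no call. With a replicate block there were 10 slopes in place of 7, sox4a (adjusted p = 0.00612) and foxo3b (0.0332) joining for the isocyanate and pax8 (0.0304) for 2-tert-Butyl-4-methoxyphenol, and every call at a code, slope and slope difference was kept, dlx3b at D1 being 1.25. The block was not run for the DMSO libraries between exposures. Libraries of the same letter correlated by 0.028 to 0.106 on average within an exposure. The main fit took no account of the letters, and these low averages do not show that plates had no effect. The shares over all probes in the alternative runs are not given here. Gains and losses of calls are therefore not read as particular to the members. Low counts limit the 7 genes below 5 CPM and myf5.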
